A study of Mus musculus with 14 samples.

Results

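The comparison described here is between anterior cingulate cortex of C57BL/6NJ mice (B6N) that underwent observational fear conditioning, called OFL here as on the labels, and the same tissue of naive B6N mice. It holds 7 of the 14 libraries of the series, 3 after OFL and 4 naive, chosen by their labels, and 53465 gene identifiers counted in each. In observational fear conditioning an observer mouse sees a cage mate receive foot shocks. The other 7 libraries are from AKR/J mice (AKR), 3 after OFL and 4 naive, and serve only to show where the B6N difference differs from theirs. No transgene or drug is on the labels, the animals' age and sex are not given in the sources used here, and the labels do not say whether a library is 1 animal. What the p-values take in is thus the scatter among the libraries of a group, technical or not. The counts of the OFL libraries were deposited as a table apart from those of the naive libraries, so OFL and the set a library belongs to cannot be told apart: every difference below is one between 2 sets of libraries.

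The anterior cingulate cortex is a midline frontal area that is active when a mouse observes another in distress, and somatostatin interneurons, which inhibit the distal dendrites of pyramidal cells, are among the cells that gate it. ARNT2, the protein in the series' title, is a transcription factor of the bHLH-PAS family that pairs with activity-induced partners such as NPAS4. Stress raises circulating glucocorticoids, whose receptor switches on a known set of target genes in neurons, glia and vessels. Fear learning switches on immediate early genes within minutes, and secretory load switches on the chaperones of the endoplasmic reticulum. In bulk tissue, fewer cells of a type and less RNA per cell cannot be told apart.

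Between the sets most genes differed. Of 20291 genes tested in 1 edgeR fit of all 14 libraries, 15916 were called at an adjusted p under 0.05, 78.4% of those tested, with 8118 higher after OFL (40.0%) and 7798 lower (38.4%). At least 2-fold and called were 6431 genes (31.7%), 4093 higher (20.2%) and 2338 lower (11.5%). Factors computed from protein-coding genes free of opposite-strand exons moved the median log2 difference of all genes from -0.002 to 0.17 and the share of higher genes among the calls from 51.0% to 60.9%. Libraries held 14063573 to 14526253 counts after OFL and 20583264 to 25780227 in naive tissue, and the common biological coefficient of variation was 0.045. Cortical identity was clear in each of the 7 libraries: Slc17a7, the vesicular glutamate transporter of cortical neurons, lay between 694 and 1367 CPM (read counts relative to the library's total, scaled by edgeR's TMM factors), and the choroid plexus gene Ttr did not exceed 1.23 CPM.

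The size of the difference moved with the base composition and length of the transcripts. Among 10362 protein-coding genes with no exonic base under an opposite-strand exon, outside the mitochondrial genome and no histone gene, 5046 were lower (48.7%) and 2929 higher (28.3%), with a median log2 difference of -0.205. From the quintile of genes poorest in G and C to the richest quintile the median went from 0.397 to -0.764, and from the shortest quintile to the longest it went from -0.524 to 0.325. Across these genes, which are not independent replicates, the difference had a Spearman correlation of -0.641 with GC content and 0.425 with exonic length. In AKR the medians by GC quintile went from 0.392 to -0.753, so this slope was in both strains. A second edgeR fit, chosen after the data were seen, removed a smooth trend of GC content and length from each library as offsets, for genes of this kind only. It called 3539 genes higher (34.1%) and 3271 lower (31.5%) of 10378. Its counts stand in brackets beside those of the gene lists below, and its values close the paragraphs for genes where it ends or gives a call, turns a direction or moves a printed difference by over 1.5-fold. Whether GC content and length account for any single gene was not tested.

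**Figure D1:**
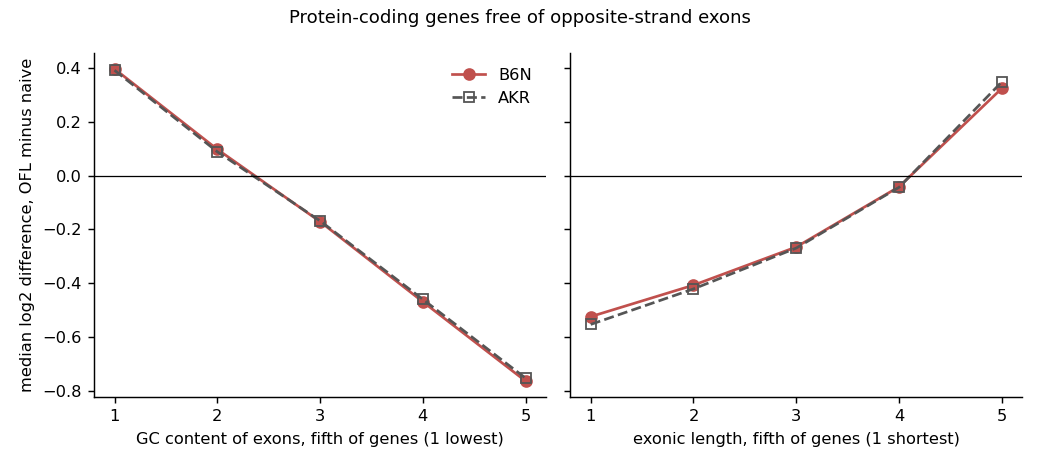
Median log2 difference (OFL minus naive, vertical axis) by quintile of GC content and by quintile of exonic length, from the lowest to the highest quintile (horizontal axis), with points for B6N and for AKR. In B6N the medians go from 0.397 to -0.764 along GC content and from -0.524 to 0.325 along length, and the AKR points lie beside them.

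Sst, the somatostatin gene itself (ENSMUSG00000004366, chromosome 16, 23889573 to 23890958, minus strand, GRCm38), was lower after OFL. It stood at 58.8, 59.8 and 59.8 CPM after OFL and 151, 157, 155 and 159 CPM in naive libraries, listed by replicate number in this and the following sentences. Every OFL library lay below every naive one, with little spread in either group; such separation was found for 76.7% of all genes tested. Its difference came to -1.38 on the log2 scale (SE 0.046, edgeR adjusted p = 7.7e-20), and in AKR -1.29. Arnt2 (ENSMUSG00000015709, chromosome 7, 84246278 to 84410176, minus strand) stood at 322, 310.2 and 321 CPM after OFL and 435, 436, 440.2 and 434 CPM in naive libraries. The groups did not overlap, and Arnt2 differed by -0.46 on the log2 scale (SE 0.035, edgeR adjusted p = 3.0e-12), against -0.35 in AKR. Nrxn3, a presynaptic adhesion molecule (ENSMUSG00000066392, chromosome 12, 88722876 to 90334935, plus strand), was higher after OFL, at 449, 455 and 439 CPM after OFL and 225, 213, 217 and 215 CPM in naive libraries. Its difference was 1.04 on the log2 scale (SE 0.039, edgeR adjusted p = 8.2e-19), with 1.13 in AKR. Cacna1c, the pore subunit of the L-type calcium channel Cav1.2 (ENSMUSG00000051331, chromosome 6, 118587240 to 119196418, minus strand), stood at 189, 177 and 178 CPM after OFL and 144, 127, 149 and 144 CPM in naive libraries. It was higher by 0.37 on the log2 scale (SE 0.050, edgeR adjusted p = 2.3e-07), and its B6N change minus its AKR change was -0.31 (SE 0.071, edgeR adjusted p = 0.0094), the only one of these 4 genes called for a difference between the strains. With GC and length offsets that difference between strains was -0.18 (edgeR adjusted p = 0.11). Exons of the opposite strand cover 2.78% to 3.48% of the exonic bases of Arnt2 and Nrxn3, whose counts are uncertain. Once GC and length offsets were used, the log2 differences became Sst -0.54 and Cacna1c -0.13.

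Among protein-coding genes free of opposite-strand exons, 1906 were called at least 2-fold (18.4%), 653 higher and 1253 lower, and 34.3% of them were higher, against 51.2% (899 of 1756) with factors from these genes alone. Of these, 1134 also reached a mean of 5 CPM without any overlap of the groups, 400 higher and 734 lower. The 15 largest decreases and the 15 largest increases below were picked among these 1134, so the rule excluded any overlap in them beforehand. The largest decreases were of genes nearly silent after OFL. Klhl34 stood at 0.137, 0.210 and 0.142 CPM after OFL and 84.3, 76.9, 84.1 and 85.0 CPM in naive libraries. Il4, the gene of the cytokine interleukin 4, stood at 0, 0.0700 and 0 CPM after OFL and 10.7, 9.81, 9.92 and 10.6 CPM in naive libraries. Proz, the gene of the plasma protein Z, stood at 0, 0.0700 and 0.142 CPM after OFL against 17.9, 17.9, 18.4 and 18.3 CPM in naive tissue. Fam205c stood at 0.137, 0.0700 and 0.0708 CPM after OFL and at 16.0, 16.3, 15.9 and 14.47 CPM naive. These 4 rest on so few OFL counts that no fold is given. Hipk4, a protein kinase gene, stood at 0.137, 0.350 and 0.212 CPM after OFL and 76.9, 95.2, 77.5 and 91.5 CPM in naive libraries (log2 -8.48, SE 0.17, edgeR adjusted p = 1.7e-24, and log2 -7.81 with offsets). Pter stood at 3.09, 3.43 and 3.19 CPM after OFL against 149.7, 127, 164 and 154 CPM in naive tissue (log2 -5.52, SE 0.11, edgeR adjusted p = 6.5e-25).

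The rest of the 15 largest decreases held Lcn2, Cabyr, Lars2, Prrt1, Hmgn5, Cdk5r2, Mbd6, Espn and Pglyrp1. Lcn2 encodes lipocalin 2, an iron-scavenging acute phase protein, and was at 0.343, 0.350 and 0.142 CPM after OFL and at 18.1, 7.06, 22.5 and 4.72 CPM naive. Naive replicates 1 and 3 were high, naive replicates 2 and 4 were several times lower, and all OFL libraries were near 0. This amounts to -5.51 on the log2 scale (SE 0.65, edgeR adjusted p = 3.4e-08). In AKR, Lcn2 was near 0 in both groups (0.0467 CPM naive, 0 CPM after OFL). Cdk5r2, which encodes p39, an activator of the kinase CDK5, was at 56.6, 49.0 and 42.3 CPM after OFL and 322, 323, 321 and 343 CPM in naive libraries (log2 -2.73, SE 0.070, edgeR adjusted p = 2.6e-22). Lars2, the mitochondrial leucyl-tRNA synthetase, went from 207 ± 29.0 to 16.9 ± 1.02 CPM, given here and below as means ± SD of the 4 naive and the 3 OFL libraries. Prrt1, whose protein binds AMPA receptors, went from 167 ± 10.98 to 15.6 ± 2.33 CPM, and Mbd6 from 67.7 ± 1.52 to 10.3 ± 3.22 CPM. Cabyr, Hmgn5, Espn (the actin-bundling protein espin) and Pglyrp1 (a peptidoglycan recognition protein) fell by 4.96, 3.38, 2.71 and 2.697 on the log2 scale. Of the 15, 12 lie within 5000 bases of a gene on the opposite strand, against 53.9% of the 10362 genes and 8 of the 15 largest increases. The part of neighbouring transcription in these values was not tested. Of the 31-base stretches of Hmgn5, 23.5% recur in other genes, which makes the counts uncertain. In the edgeR fit with GC and length offsets, log2 differences were Lcn2 -4.79, Cdk5r2 -1.61, Prrt1 -2.33, Mbd6 -1.76, Espn -2.03 and Pglyrp1 -1.99.

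The 15 largest increases reached from 2.30 (Zfp955a) to 2.91 (Catspere2). Lrp1b, a large member of the LDL receptor family, was the most abundant of them, at 339, 372 and 356 CPM after OFL against 65.4, 54.9, 64.0 and 56.8 CPM in naive tissue (log2 2.56, SE 0.056, edgeR adjusted p = 1.2e-23). Khdrbs2, an RNA-binding regulator of splicing in neurons, stood at 41.1, 41.9 and 32.8 CPM after OFL and at 7.20, 6.84, 6.42 and 7.73 CPM naive (log2 2.45, SE 0.082, edgeR adjusted p = 8.4e-20). Sgcd, a sarcoglycan of the dystrophin complex, went from 2.03 ± 0.494 to 12.7 ± 2.14 CPM. Catspere2 went from 4.75 ± 0.222 to 35.9 ± 1.58 CPM and Utp14b from 13.97 ± 1.17 to 87.3 ± 7.44 CPM. Mgat4c, a glycosyltransferase gene, went from 7.004 ± 0.861 to 36.6 ± 4.26 CPM, the receptor gene Gpr21 from 2.42 ± 0.591 to 12.7 ± 1.10 CPM and the zinc finger gene Zfp458 from 6.08 ± 0.432 to 32.1 ± 0.786 CPM. Morc2b and Zfp955a were higher by 2.55 and 2.30. No OFL library overlapped a naive one in these 10, which the rule that picked them required. The remaining 5 were genes of odorant receptors, Olfr1385, Olfr986, Olfr639, Olfr46 and Olfr90, with differences from 2.37 to 2.88. Odorant receptor genes were looked up after these values were seen. Of the 79 tested, 61 were called higher and 10 lower, and their median was 1.84 (1.68 in AKR). Shares of higher calls were 40.0% over all genes and 28.3% over protein-coding genes free of opposite-strand exons. The family's median GC content was 40.16%, in the quintile of those genes where 64.7% were higher. Under GC and length offsets 55 were called higher and 11 lower, and the family's median was 1.242. These 79 passed the count filter, which can keep a gene on its OFL libraries alone. Other genes share 23.2% to 66.0% of the 31-base stretches of Zfp955a, Catspere2, Olfr90, Olfr1385, Olfr639 and Olfr46, so reads of copies cannot be told apart. The same log2 differences with GC and length offsets were Lrp1b 1.497, Khdrbs2 1.53, Sgcd 1.81, Mgat4c 1.23, Zfp458 1.79 and Olfr639 1.97.

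Genes that glucocorticoids are known to induce were mostly lower after OFL in B6N. Of a list of such genes, 15 of the 20 tested were lower, 4 were higher and 1 was not called (38.4% and 40.0% of all genes were lower and higher), and the list's median was -0.83, against -0.002 for all genes tested and -0.24 for the same members in AKR. Of protein-coding genes free of opposite-strand exons 48.7% were lower and 28.3% higher, with a median of -0.205. The list's median GC content was 52.91%, in the quintile of those genes where 70.3% were lower and the median was -0.469. With GC and length offsets 4 were higher and 9 lower of 16. For those 16 genes the median went from -0.775 to -0.303. Fkbp5, a co-chaperone that restrains the glucocorticoid receptor (ENSMUSG00000024222, chromosome 17, 28399094 to 28517527, minus strand), stood at 33.1, 35.3 and 33.3 CPM after OFL and 78.8, 61.9, 83.8 and 67.9 CPM in naive libraries. All naive libraries lay above all OFL libraries, with naive replicates 1 and 3 the highest. Its difference was -1.11 on the log2 scale (SE 0.080, edgeR adjusted p = 1.1e-12), in AKR it was -0.16, and the B6N change minus the AKR change was -0.95 (SE 0.12, edgeR adjusted p = 9.7e-06). Tsc22d3, which encodes the anti-inflammatory mediator GILZ, stood at 88.1, 103 and 107 CPM after OFL against 128, 135, 148 and 132 CPM in naive tissue (log2 -0.45, SE 0.063, edgeR adjusted p = 3.2e-07). In AKR the same gene was higher after OFL by 0.65, and the difference between the strains was -1.11 (SE 0.091, edgeR adjusted p = 6.5e-09). Plin4, a lipid droplet protein, stood at 13.2, 15.1 and 18.0 CPM after OFL and at 29.1, 29.5, 37.2 and 21.7 CPM naive (log2 -0.92, SE 0.13, edgeR adjusted p = 6.8e-07), with 1.34 in AKR and a difference between strains of -2.26 (SE 0.20, edgeR adjusted p = 2.4e-08).

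From the same list, Cdkn1a, Hif3a and Mt1 were lower by more than 2-fold. Their naive libraries all lay above their OFL libraries. Cdkn1a, the cell cycle inhibitor p21, stood at 9.88, 11.2 and 8.42 CPM after OFL and 59.6, 48.3, 61.7 and 47.3 CPM in naive libraries (log2 -2.46, SE 0.12, edgeR adjusted p = 2.8e-16). Hif3a, a bHLH-PAS factor that hypoxia and glucocorticoids both induce, stood at 8.71, 7.91 and 7.86 CPM after OFL against 21.7, 24.3, 23.1 and 23.6 CPM in naive tissue (log2 -1.503, SE 0.086, edgeR adjusted p = 7.1e-15). Mt1, a metal-binding metallothionein, stood at 47.7, 50.1 and 54.6 CPM after OFL and at 119, 124, 134 and 122 CPM naive (log2 -1.29, SE 0.070, edgeR adjusted p = 2.7e-15). Map3k6, a stress kinase gene, went from 16.1 ± 1.89 to 7.34 ± 1.46 CPM. Of the 4 members called higher, Mt2, the neighbour of Mt1, went from 1.604 ± 0.415 to 11.04 ± 0.625 CPM. Sgk1, an ion-transport kinase, went from 84.2 ± 13.98 to 98.2 ± 4.87 CPM. The other members called higher are not named here. Sgk1 overlapped between the groups, since naive replicate 2 lay at 105 CPM, and its call (log2 0.22, edgeR adjusted p = 0.015) was lost without naive replicate 1 (edgeR adjusted p = 0.068), naive replicate 4 (0.066) or OFL replicate 2 (0.089). The difference between the strains was called lower in B6N for 9 of the 20 tested members (3.61% of all genes). With offsets it was called lower for 6 of 16. The receptors went the other way: Nr3c1, the glucocorticoid receptor, stood at 199, 208 and 207 CPM after OFL and 105, 108, 98.9 and 101 CPM in naive libraries (log2 0.99, SE 0.046, edgeR adjusted p = 1.0e-16), and Nr3c2, the mineralocorticoid receptor, went from 33.6 ± 2.13 to 62.8 ± 2.02 CPM. Fkbp5, Tsc22d3, Plin4, Map3k6 and Sgk1 were picked from the list after their values were seen. The counts of Plin4, Cdkn1a, Mt2 and Nr3c2 are uncertain, since opposite-strand exons cover 0.294% to 73.5% of the exonic bases. Under GC and length offsets the log2 differences were Mt1 -0.62 and Map3k6 -0.30.

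Chaperones of the endoplasmic reticulum, which fold secreted and membrane proteins, were also mostly lower in B6N. Of all genes 38.4% were lower and 40.0% higher, and of protein-coding genes free of opposite-strand exons 48.7% and 28.3%. Of the list, 13 of the 18 tested were lower, 2 were higher and 3 were not called, with a median of -0.29, against 0.17 in AKR. The count moved with the offsets: with GC and length offsets 5 were higher and 3 lower of 13, and for those 13 genes the median went from -0.259 to -0.044. Hspa5, the master chaperone BiP (ENSMUSG00000026864, chromosome 2, 34771970 to 34777547, plus strand), stood at 224, 263 and 276 CPM after OFL against 437, 329, 422 and 347 CPM in naive tissue. No libraries overlapped, and naive replicates 1 and 3 were again the highest. In B6N it differed by -0.59 on the log2 scale (SE 0.093, edgeR adjusted p = 2.0e-06), and -0.63 with offsets, whereas in AKR it was 0.26. The difference between the strains was -0.86 (SE 0.13, edgeR adjusted p = 1.4e-04). Calr, the calcium-binding chaperone calreticulin, stood at 212, 233 and 246 CPM after OFL and at 393, 333, 402 and 354 CPM naive (log2 -0.69, SE 0.063, edgeR adjusted p = 1.4e-10). Pdia3, a disulfide isomerase that works beside it, stood at 130.1, 128 and 133 CPM after OFL and 228, 194, 222 and 200.4 CPM in naive libraries (log2 -0.70, SE 0.051, edgeR adjusted p = 1.2e-12). Both were lower in all OFL libraries than in any naive one. Sdf2l1, an HSPA5-associated protein, stood at 7.20, 8.12 and 7.998 CPM after OFL against 19.8, 12.7, 19.3 and 15.2 CPM in naive tissue (log2 -1.11, SE 0.14, edgeR adjusted p = 8.7e-08), and the stress-induced factor gene Ddit3 (CHOP) went from 24.5 ± 1.82 to 13.1 ± 0.668 CPM. Called higher were the calnexin gene Canx, at 396, 433 and 446 CPM after OFL and at 329, 300.2, 329 and 319.5 CPM naive, and the GRP94 gene Hsp90b1. Hsp90b1 stood at 254, 272 and 276 CPM after OFL and 217, 185, 210.1 and 187 CPM in naive libraries. Their differences were 0.41 and 0.42 in B6N and 0.49 and 0.80 in AKR. For 14 of the 18 members the B6N change was called lower than the AKR change, against 3.61% of all genes, and for 10 of 13 with offsets. Hspa5 and Hsp90b1 were named after their values were seen. Exons of the opposite strand cover 0.573% to 10.3% of the exonic bases of Pdia3, Ddit3 and Hsp90b1, whose counts are uncertain. Once GC and length offsets were used, the log2 differences became Sdf2l1 -0.22 (edgeR adjusted p = 0.22).

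The ER stress response element, CCAAT and CCACG with 9 bases of any kind between them, lies in promoters of many of these genes and is bound by ATF6 with NF-Y. The RefSeq promoter table of GRCm38.p6, which gives 250 bases before and 50 after each start, held 16 of the 18 members. On either strand the element was found in 7 of these 16, Calr, Canx, Creld2, Dnajc3, Hsp90b1, Hspa5 and Pdia6, and in 19 of 12676 promoters of tested genes (0.15%). The bases before the start are shown for 4 of them, 2 lower and 2 higher after OFL in B6N, because they carry the element in common and differ in direction. They are written 5′ to 3′ on the strand of the gene, with the element in capitals, for Hspa5 (chr2:34771840-34772089, plus strand), Calr (chr8:84846932-84847181, minus strand), Hsp90b1 (chr10:86705445-86705694, minus strand, 2 matches) and Canx (chr11:50325674-50325923, minus strand).
Hspa5: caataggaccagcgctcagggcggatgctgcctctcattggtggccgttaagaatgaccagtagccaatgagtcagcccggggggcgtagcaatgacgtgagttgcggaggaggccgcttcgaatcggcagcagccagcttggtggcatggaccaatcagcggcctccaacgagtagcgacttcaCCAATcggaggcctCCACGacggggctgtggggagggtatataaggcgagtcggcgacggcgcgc
Calr: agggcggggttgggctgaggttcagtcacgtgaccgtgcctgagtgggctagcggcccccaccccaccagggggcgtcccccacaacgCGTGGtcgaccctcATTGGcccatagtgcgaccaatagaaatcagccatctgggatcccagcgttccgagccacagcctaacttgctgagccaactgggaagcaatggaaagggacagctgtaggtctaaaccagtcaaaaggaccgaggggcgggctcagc
Hsp90b1: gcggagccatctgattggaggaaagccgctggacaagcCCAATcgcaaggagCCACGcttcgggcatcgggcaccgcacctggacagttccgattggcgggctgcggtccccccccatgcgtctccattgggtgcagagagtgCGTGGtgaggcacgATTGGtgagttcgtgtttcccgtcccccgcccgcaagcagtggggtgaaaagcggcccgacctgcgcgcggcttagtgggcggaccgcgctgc
Canx: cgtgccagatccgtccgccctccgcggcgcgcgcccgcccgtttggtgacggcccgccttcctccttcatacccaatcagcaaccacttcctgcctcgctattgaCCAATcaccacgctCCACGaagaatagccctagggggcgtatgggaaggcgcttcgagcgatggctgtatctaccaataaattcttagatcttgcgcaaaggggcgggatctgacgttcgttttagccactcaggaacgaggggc

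A match describes these letters and shows no binding. Members with the element were found on both sides of zero: Hspa5 (-0.59) and Calr (-0.69) among the lower, Canx (0.41) and Hsp90b1 (0.42) among the higher. For 3 of the 4, Hspa5, Calr and Hsp90b1, the B6N change minus the AKR change was called, at -0.86, -0.36 and -0.38, and the call of Calr was lost without AKR OFL replicate 2. The same was not called for Canx (strain difference -0.076, SE 0.060, edgeR adjusted p = 0.57).

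Heat shock genes of the cytosol and mitochondria followed in part, beside 38.4% lower and 40.0% higher of all genes. Of the list, 10 of the 14 tested were lower, 3 were higher and 1 was not called (with offsets, 4 lower and 0 higher of 9), with a median of -0.34, and only 1 was called higher without naive replicate 2 or without OFL replicate 2. Hsp90ab1, the abundant cytosolic HSP90, stood at 647, 675 and 655 CPM after OFL against 1311, 1180.2, 1312 and 1240.3 CPM in naive tissue (log2 -0.94, SE 0.040, edgeR adjusted p = 1.6e-17). Cryab, the small heat shock protein alpha-B crystallin of glia, went from 47.2 ± 4.72 to 14.54 ± 2.21 CPM, Bag3, a co-chaperone of HSP70, from 8.20 ± 0.778 to 3.06 ± 0.794 CPM, and Hspb1 from 10.9 ± 2.13 to 3.97 ± 0.912 CPM. Hsph1, named after its value was seen, is an exchange factor for HSP70 and stood at 326, 321 and 327 CPM after OFL and at 459, 378, 432 and 374 CPM naive (log2 -0.34, SE 0.057, edgeR adjusted p = 7.2e-06), with 0.11 in AKR. For 3 members the B6N change was called lower than the AKR change, and this count was 6 without naive replicate 2. A heat shock element, GAA, TTC and GAA with 2 bases of any kind between neighbours, was found in promoters of 3 of the 10 members with a promoter, Chordc1, Hspe1 and Hsph1, and in 0.402% of all. Uncertain counts are those of Cryab, where exons of the opposite strand cover 17.0% of the exonic bases. Of the 31-base stretches of Hspb1, 55.4% recur in other genes, which makes the counts uncertain. In the edgeR fit with GC and length offsets, log2 differences were Bag3 -0.59 and Hspb1 -0.37 (edgeR adjusted p = 0.075).

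**Figure D2:**
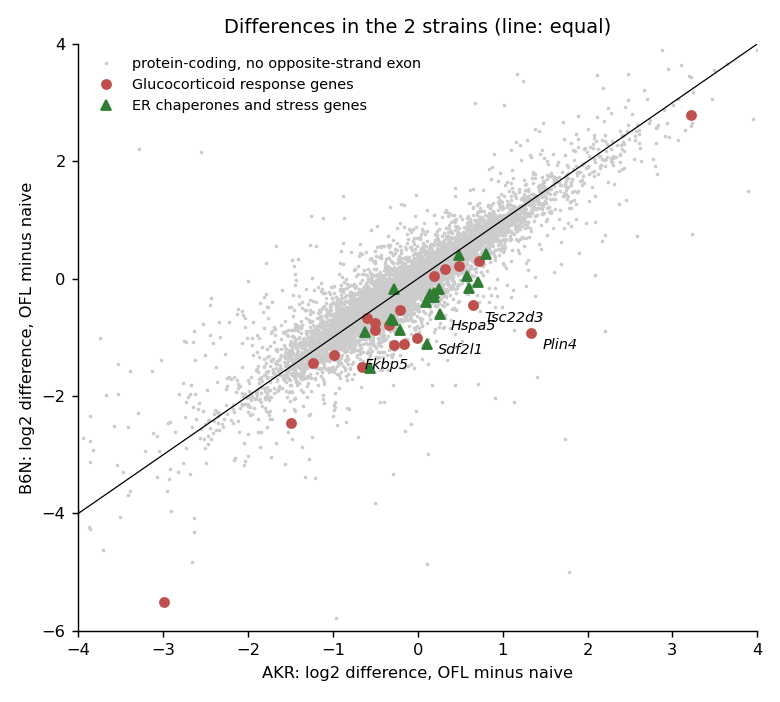
Log2 difference after OFL in B6N (vertical axis, -6 to 4) against that in AKR (horizontal axis, -4 to 4), in grey for protein-coding genes free of opposite-strand exons, with glucocorticoid response genes and endoplasmic reticulum chaperones in colour, and 89 genes outside the axes. The grey cloud follows the diagonal, while most coloured points lie below it, Plin4, Tsc22d3, Fkbp5 and Hspa5 among them.

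Activity genes showed no common direction in the fit without GC and length offsets. Of the immediate early genes, transcription factors and signalling genes that neurons switch on within minutes of firing, 10 of the 28 tested were lower, 7 were higher and 11 were not called, shares below those of all genes. Their median was -0.15, and 0.03 with factors from protein-coding genes free of opposite-strand exons, so its sign depends on the scaling. Without OFL replicate 1 or 2 the higher calls were 4. With GC and length offsets 11 were higher and 1 lower of 23, against 34.1% and 31.5% of all genes in that fit. The median of those 23 genes went from -0.197 to 0.328. Fos stood at 84.7, 77.8 and 67.7 CPM after OFL and 60.8, 46.5, 42.9 and 44.5 CPM in naive libraries. All 3 OFL libraries lay above the 4 naive ones, with naive replicate 1 the nearest. OFL exceeded naive by 0.65 on the log2 scale (SE 0.25, edgeR adjusted p = 0.021). The call was lost without OFL replicate 1 (edgeR adjusted p = 0.073) or OFL replicate 2 (0.051), and with DESeq2 (adjusted p = 0.12). Npas4, an activity-induced bHLH-PAS partner of ARNT2, stood at 38.2, 33.9 and 25.4 CPM after OFL against 50.4, 46.4, 37.7 and 39.6 CPM in naive tissue. The groups overlapped, and its difference was -0.42 on the log2 scale (SE 0.26, edgeR adjusted p = 0.14), against -1.41 in AKR. It was called without AKR naive replicate 4 (edgeR adjusted p = 0.0096), in a fit of the B6N libraries alone (0.0019) and with no filter on low counts (4.5e-12), at nearly the same size. Arc, an activity-regulated gene of dendrites, stood at 456, 439 and 339 CPM after OFL and at 533, 499.6, 464 and 389 CPM naive, also with overlap, and its difference was -0.20 on the log2 scale (SE 0.23, edgeR adjusted p = 0.43); with offsets it was 0.74 (edgeR adjusted p = 0.010), and with no filter on low counts it was called at -0.23 (edgeR adjusted p = 1.6e-07). Egr3 stood at 189, 192 and 159.8 CPM after OFL and 448, 412, 420.5 and 389.7 CPM in naive libraries (log2 -1.21, SE 0.081, edgeR adjusted p = 2.5e-13), while Klf2 and Ier3 went from 15.4 ± 1.15 to 6.73 ± 1.07 CPM and from 9.55 ± 1.12 to 4.80 ± 0.770 CPM. Jund, of the AP-1 family, was higher (from 21.5 ± 1.30 to 67.5 ± 3.06 CPM). Fos, Npas4 and Arc were named after their values were seen. For Jund, 52.6% of the exonic bases lie under exons of the opposite strand, so these counts are uncertain. The same log2 differences with GC and length offsets were Npas4 0.27 (edgeR adjusted p = 0.41), Klf2 -0.11 (edgeR adjusted p = 0.50) and Ier3 -0.23 (edgeR adjusted p = 0.11).

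Of the later response genes, 6 of the 16 tested were lower, 8 were higher and 2 were not called (with offsets, 2 lower and 3 higher of 12), against 38.4% lower and 40.0% higher of all genes. Homer1, a postsynaptic scaffold whose short form is activity-induced, was higher, at 763, 869 and 765 CPM after OFL against 433, 374, 416 and 357 CPM in naive tissue (log2 1.02, SE 0.074, edgeR adjusted p = 1.5e-12). Vgf, a neuropeptide precursor, was lower, at 162, 161 and 159 CPM after OFL and at 356, 352, 363 and 342 CPM naive (log2 -1.13, SE 0.052, edgeR adjusted p = 7.9e-17). Tiparp, an ADP-ribosyltransferase, went from 19.6 ± 0.180 to 56.5 ± 4.71 CPM, and Nrn1, the plasticity factor neuritin, from 118 ± 5.12 to 171 ± 1.94 CPM. The counts of Tiparp and Nrn1 are uncertain, since opposite-strand exons cover 5.12% to 22.3% of the exonic bases. Under GC and length offsets the log2 differences were Homer1 -0.065 (edgeR adjusted p = 0.47) and Vgf -0.019 (edgeR adjusted p = 0.74).

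In each of the lists of interneuron genes more members were called lower than higher, as was the case for protein-coding genes free of opposite-strand exons in general (48.7% lower, 28.3% higher). For somatostatin interneurons, 9 of the 15 tested were lower, 2 were higher and 4 were not called (with offsets, 7 lower and 0 higher of 13), with a median of -0.71 (-0.62 in AKR). Beside Sst, Elfn1, a synaptic organiser of these cells, stood at 17.4, 17.4 and 15.2 CPM after OFL and 53.4, 45.8, 51.4 and 54.4 CPM in naive libraries (log2 -1.62, SE 0.079, edgeR adjusted p = 2.9e-16). The opioid precursor gene Pdyn stood at 14.47, 10.9 and 13.1 CPM after OFL against 30.3, 30.5, 30.6 and 36.2 CPM in naive tissue (log2 -1.31, SE 0.084, edgeR adjusted p = 9.7e-14). Reln, a secreted glycoprotein that several interneuron types make, was higher, at 212, 202 and 215 CPM after OFL and at 95.6, 100.5, 101 and 105 CPM naive (log2 1.06, SE 0.041, edgeR adjusted p = 1.8e-18). Among parvalbumin interneuron genes, 6 of the 10 tested were lower, 2 were higher and 2 were not called (with offsets, 3 lower and 1 higher of 9). Pvalb stood at 27.0, 23.5 and 25.4 CPM after OFL and 30.2, 44.0, 28.8 and 32.3 CPM in naive libraries, low in all OFL libraries and raised in naive replicate 2 (log2 -0.42, SE 0.11, edgeR adjusted p = 0.0011). Erbb4, the neuregulin receptor, was higher, at 219.8, 225 and 227 CPM after OFL against 106, 106, 107 and 107 CPM in naive tissue (log2 1.07, SE 0.044, edgeR adjusted p = 5.8e-18). The potassium channel gene Kcnc1 and the retinol carrier gene Rbp4 went from 234 ± 10.8 to 144 ± 17.8 CPM and from 16.4 ± 0.568 to 6.54 ± 1.39 CPM. In the VIP list 7 of the 10 tested were lower, 1 was higher and 2 were not called (with offsets, 5 lower and 1 higher of 8). Vip itself stood at 45.3, 47.7 and 51.0 CPM after OFL and at 58.3, 59.4, 61.4 and 65.0 CPM naive, with no overlap. Tac2 (neurokinin B) went from 10.3 ± 0.665 to 3.23 ± 0.511 CPM, Calb2 (calretinin) from 15.5 ± 1.80 to 7.68 ± 0.958 CPM and Cck from 286 ± 10.7 to 179 ± 11.3 CPM. For LAMP5 and NDNF cells 6 of the 9 tested were lower and 3 were higher (with offsets, 4 lower and 1 higher of 8), with Lamp5 at 97.7, 94.4 and 76.5 CPM after OFL and 193, 248, 195 and 222 CPM in naive libraries (log2 -1.26, SE 0.086, edgeR adjusted p = 3.3e-13) and Npy going from 48.6 ± 1.96 to 29.8 ± 2.53 CPM. Pvalb and Vip were named after their values were seen. Exons of the opposite strand cover 1.04% of the exonic bases of Reln, whose counts are uncertain. Once GC and length offsets were used, the log2 differences became Elfn1 -0.82, Pvalb -0.028 (edgeR adjusted p = 0.83), Erbb4 0.24, Rbp4 -0.50, Tac2 -0.99, Calb2 -0.32, Cck 0.22 and Npy -0.0099 (edgeR adjusted p = 0.90).

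Genes shared by GABAergic neurons were lower for the most part, as 12 of the 16 tested were lower, 3 were higher and 1 was not called (with offsets, 9 lower and 2 higher of 11), with a median of -0.65. Among protein-coding genes free of opposite-strand exons 48.7% were lower and 28.3% higher. Dlx1, a transcription factor of interneuron development, stood at 11.5, 11.5 and 10.4 CPM after OFL against 40.5, 40.1, 37.6 and 40.3 CPM in naive tissue (log2 -1.83, SE 0.076, edgeR adjusted p = 8.7e-18). Slc32a1, the vesicular GABA transporter, stood at 25.4, 27.7 and 23.5 CPM after OFL and at 66.4, 69.5, 62.5 and 70.3 CPM naive. Both were lower in every OFL library. Adarb2, which marks interneurons of the caudal eminence, was higher, at 63.4, 64.2 and 61.2 CPM after OFL and 24.9, 26.4, 24.3 and 28.4 CPM in naive libraries (log2 1.27, SE 0.053, edgeR adjusted p = 9.6e-18), and its B6N change exceeded its AKR change by 0.32 (SE 0.073, edgeR adjusted p = 0.0090). The glutamatergic list moved alike, since 12 of the 15 tested were lower, 2 were higher and 1 was not called (with offsets, 6 lower and 2 higher of 11), with a median of -0.64. Nrgn, the calmodulin-binding protein neurogranin, was at 188, 180.3 and 155 CPM after OFL against 678, 709, 695 and 729 CPM in naive tissue (log2 -2.01, SE 0.054, edgeR adjusted p = 7.8e-22). The kinase gene Camk2a stood at 1383, 1213 and 1135 CPM after OFL and at 2995, 2931, 3202 and 3305 CPM naive. Slc17a7 went from 1319.6 ± 59.2 to 707 ± 11.1 CPM, and Slc30a3, the zinc transporter of synaptic vesicles, from 193 ± 5.21 to 66.2 ± 0.739 CPM, and in none of the 4 did the groups overlap. Uncertain counts are those of Dlx1 and Slc32a1, where exons of the opposite strand cover 6.21% to 24.9% of the exonic bases. In the edgeR fit with GC and length offsets, log2 differences were Nrgn -1.03, Slc17a7 -0.27 and Slc30a3 -0.54.

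Cortical layer genes split by gene. In the upper layer list 6 of the 12 tested were lower, 4 were higher and 2 were not called (with offsets, 7 lower and 2 higher of 10), and its median changed sign with the scaling (-0.086, and 0.09 with factors from protein-coding genes free of opposite-strand exons). Rorb, a nuclear receptor of cortical layers, was higher, at 70.4, 63.7 and 71.8 CPM after OFL and 19.11, 21.9, 21.1 and 22.2 CPM in naive libraries (log2 1.70, SE 0.055, edgeR adjusted p = 4.0e-20), while Lhx2, Wfs1 and Mdga1 went from 91.3 ± 3.24 to 35.8 ± 2.32 CPM, from 157 ± 19.6 to 46.4 ± 3.56 CPM and from 31.5 ± 2.65 to 13.2 ± 1.5 CPM. In the deep layer list 6 of the 15 tested were lower, 7 were higher and 2 were not called (with offsets, 3 lower and 4 higher of 10). Fezf2, the selector of subcortically projecting neurons, went from 61.1 ± 6.40 to 28.9 ± 2.74 CPM, and Foxp2 from 8.46 ± 2.40 to 24.4 ± 3.40 CPM. Tshz2 was spread widely after OFL, at 112, 78.0 and 58.9 CPM, against 11.8, 17.2, 11.7 and 13.4 CPM in naive libraries. For Tshz2, 67.5% of the exonic bases lie under exons of the opposite strand, so these counts are uncertain. The same log2 differences with GC and length offsets were Rorb 1.01, Lhx2 -0.54, Wfs1 -0.91, Fezf2 -0.28 and Foxp2 0.67.

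**Figure D3:**
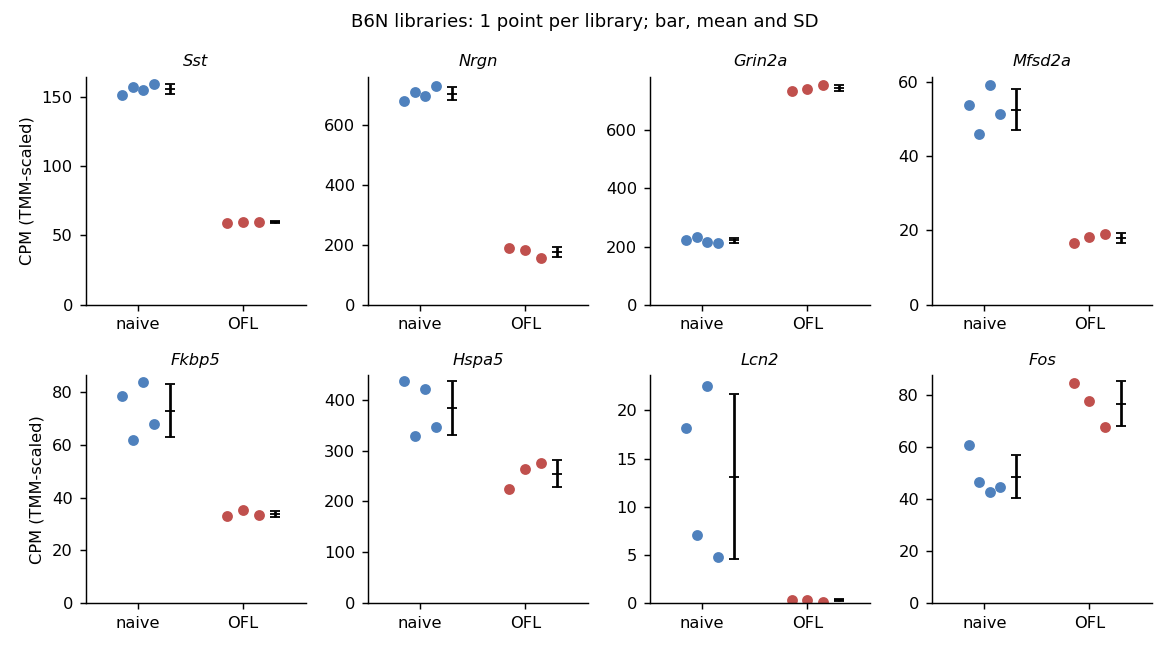
CPM (TMM-scaled, vertical axes from 0) of Sst, Nrgn, Grin2a, Mfsd2a, Fkbp5, Hspa5, Lcn2 and Fos in each of the 4 naive and 3 OFL libraries of B6N, 1 panel a gene, with points for libraries and bars for the mean and SD. In every panel the OFL points are clear of the naive points, which the rule that picked Lcn2 required of it. The naive points of Lcn2 spread from 4.72 to 22.5.

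Of the lists of receptor and channel genes, those of GABA-A, ionotropic and metabotropic glutamate and neuromodulator receptors and of calcium channels had more members called higher than lower, beside 40.0% higher and 38.4% lower of all genes. With offsets (34.1% of genes higher, 31.5% lower) this held for metabotropic glutamate and neuromodulator receptors. Of GABA-A receptor subunits 3 of the 13 tested were lower, 8 were higher and 2 were not called, but with GC and length offsets 3 were higher and 5 lower of 9, and 1 was lower with factors from protein-coding genes free of opposite-strand exons. Gabrb2 was at 315, 314 and 328 CPM after OFL against 139, 126, 134 and 132 CPM in naive tissue (log2 1.26, SE 0.044, edgeR adjusted p = 2.3e-19) and Gabrg3 went from 44.5 ± 1.76 to 89.8 ± 6.99 CPM. Of ionotropic glutamate receptor subunits 5 of the 16 tested were lower, 8 were higher and 3 were not called (with offsets, 3 lower and 3 higher of 11). Grin2a, the NMDA receptor subunit of mature synapses, stood at 736, 743 and 756 CPM after OFL and at 224, 233, 214 and 212 CPM naive (log2 1.75, SE 0.040, edgeR adjusted p = 2.2e-23). Grin2b, the subunit that prevails early in development, stood at 1470.1, 1489.6 and 1564 CPM after OFL and 536, 495, 541 and 520.3 CPM in naive libraries (log2 1.53, SE 0.040, edgeR adjusted p = 4.7e-22), and its B6N change minus its AKR change was -0.39 (SE 0.057, edgeR adjusted p = 8.7e-05). The AMPA receptor subunit gene Gria4 went from 123.3 ± 4.73 to 208 ± 3.94 CPM. Of metabotropic glutamate receptors 2 of the 7 tested were lower and 5 were higher (with offsets, 0 lower and 5 higher of 5): Grm3 was higher, at 204, 202 and 206 CPM after OFL against 62.2, 62.8, 62.9 and 64.3 CPM in naive tissue (log2 1.69, SE 0.041, edgeR adjusted p = 8.5e-23), and Grm2 lower (from 88.9 ± 4.996 to 38.2 ± 3.94 CPM). The counts of Grin2b and Grm2 are uncertain, since opposite-strand exons cover 1.12% to 9.60% of the exonic bases. Under GC and length offsets the log2 differences were Gabrg3 0.36 and Grin2a 0.97.

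Among voltage-gated calcium channel subunits 5 of the 15 tested were lower, 9 were higher and 1 was not called (with offsets, 3 lower and 3 higher of 8). The auxiliary subunits split, with Cacnb3 going from 335 ± 15.7 to 147 ± 8.25 CPM and Cacnb4 from 219 ± 6.53 to 451 ± 15.5 CPM. Of synaptic adhesion genes 3 of the 10 tested were lower and 7 were higher (with offsets, 1 lower and 2 higher of 4), against 40.0% higher of all genes. The median was 0.46 over the 10. For the 4 members in the fit with offsets it was -0.302 without offsets and 0.018 with them. Nlgn1, a postsynaptic neuroligin, stood at 252, 264 and 275 CPM after OFL and at 76.2, 76.1, 78.2 and 75.8 CPM naive (log2 1.78, SE 0.043, edgeR adjusted p = 9.6e-23). Lrrtm4 went from 12.6 ± 1.27 to 63.5 ± 2.46 CPM, and both were higher in every OFL library. The vesicle machinery was mostly lower, beside 38.4% of all genes and 48.7% of protein-coding genes free of opposite-strand exons. Of its genes 12 of the 17 tested were lower, 3 were higher and 2 were not called (with offsets, 6 lower and 4 higher of 10). With factors from those protein-coding genes 5 were higher. Vamp2, the vesicle SNARE, stood at 269, 246 and 231 CPM after OFL and 928, 888, 936 and 926 CPM in naive libraries (log2 -1.88, SE 0.051, edgeR adjusted p = 1.0e-21). Syn1 (synapsin 1) went from 732 ± 19.2 to 234 ± 19.3 CPM, and Cplx1, the complexin of fast release, from 523 ± 42.9 to 176 ± 14.99 CPM. Of neuromodulator and peptide receptors 8 of the 25 tested were lower, 12 were higher and 5 were not called (with offsets, 4 lower and 9 higher of 19), with Adra1a, an alpha-1 adrenergic receptor, at 43.4, 43.0 and 40.1 CPM after OFL against 16.4, 15.9, 15.8 and 15.4 CPM in naive tissue (log2 1.41, SE 0.068, edgeR adjusted p = 2.0e-16). Somatostatin receptors were lower in the count, since 3 of the 4 tested were lower and 1 was not called, but with GC and length offsets 3 of 4 were higher. Sstr1 stood at 9.12, 10.6 and 11.8 CPM after OFL and at 19.0, 17.9, 20.1 and 20.5 CPM naive. Exons of the opposite strand cover 0.273% to 25.1% of the exonic bases of Cacnb4, Nlgn1, Lrrtm4 and Syn1, whose counts are uncertain. Once GC and length offsets were used, the log2 differences became Cacnb3 -0.23, Vamp2 -1.30, Cplx1 -0.74 and Sstr1 0.078 (edgeR adjusted p = 0.48).

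**Figure D4:**
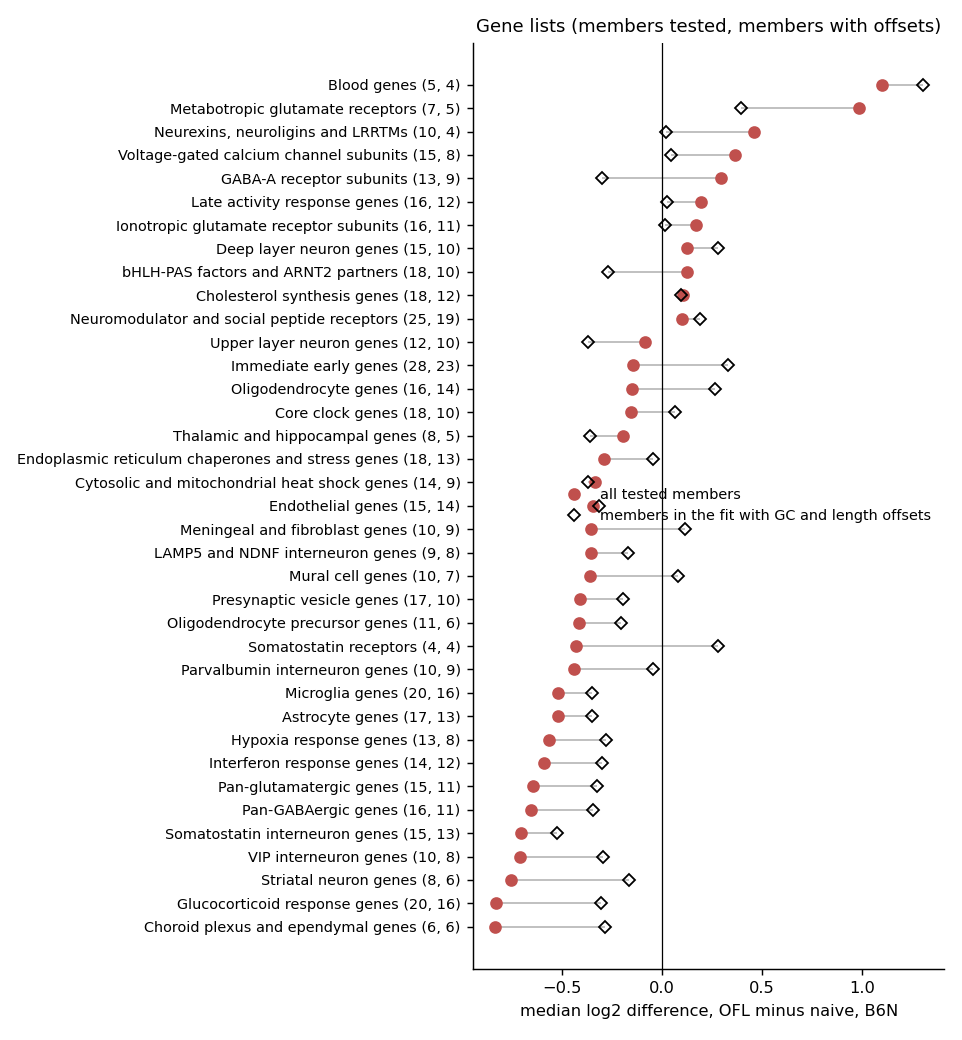
Median log2 difference (OFL minus naive in B6N, horizontal axis) of each gene list (vertical axis), as a circle for all members tested and as a diamond for the members in the fit with GC and length offsets, which are fewer. Glucocorticoid response genes lie at -0.83, and the diamonds of most neuronal lists lie nearer to 0 than their circles.

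Most members of the lists of astrocyte, microglia and oligodendrocyte precursor genes were called lower, beside 38.4% of all genes and 48.7% of protein-coding genes free of opposite-strand exons. Of astrocyte genes 14 of the 17 tested were lower and 3 were higher (with offsets, 9 lower and 1 higher of 13), with a summed level of 6918 to 7093 CPM after OFL and 6512 to 7057 CPM in naive libraries. Atp1b2, a sodium pump subunit of astrocytes, stood at 81.2, 63.3 and 56.3 CPM after OFL and 405, 435, 400.5 and 428 CPM in naive libraries (log2 -2.64, SE 0.077, edgeR adjusted p = 4.9e-21), Mlc1 and the gap junction gene Gja1 went from 168 ± 8.93 to 88.9 ± 1.27 CPM and from 187 ± 11.02 to 107 ± 1.75 CPM, and Slc1a2, the main glutamate transporter, was higher (from 2501 ± 89.5 to 3888 ± 57.4 CPM). Of microglia genes 16 of the 20 tested were lower, 1 was higher and 3 were not called (with offsets, 9 lower and 2 higher of 16), with C1qb, a complement component, at 18.7, 16.4 and 15.6 CPM after OFL against 47.5, 41.7, 49.6 and 46.8 CPM in naive tissue (log2 -1.45, SE 0.078, edgeR adjusted p = 1.9e-15) and Selplg going from 36.4 ± 2.60 to 12.02 ± 0.539 CPM. Of oligodendrocyte precursor genes 7 of the 11 tested were lower, 3 were higher and 1 was not called (with offsets, 2 lower and 1 higher of 6), with the lineage factor Olig1 at 30.04, 26.7 and 26.4 CPM after OFL and at 74.8, 89.1, 77.3 and 83.7 CPM naive and Sox10 going from 26.9 ± 2.104 to 9.92 ± 2.81 CPM. Uncertain counts are those of Slc1a2 and Olig1, where exons of the opposite strand cover 1.44% to 7.26% of the exonic bases. In the edgeR fit with GC and length offsets, log2 differences were Gja1 -1.42, C1qb -0.54 and Sox10 -0.39.

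Myelin genes did not move together. Of oligodendrocyte genes 6 of the 16 tested were lower, 5 were higher and 5 were not called (with offsets, 5 lower and 7 higher of 14), and the median of -0.15 became 0.03 with factors from protein-coding genes free of opposite-strand exons. Ugt8a, an enzyme of myelin galactolipids, stood at 48.2, 43.0 and 33.6 CPM after OFL and 20.1, 26.1, 19.11 and 20.3 CPM in naive libraries (log2 0.96, SE 0.10, edgeR adjusted p = 4.0e-09). Aspa, which breaks down N-acetylaspartate, stood at 18.0, 13.1 and 13.52 CPM after OFL against 5.62, 9.72, 5.68 and 5.45 CPM in naive tissue (log2 1.17, SE 0.16, edgeR adjusted p = 1.5e-07). Fa2h, the fatty acid 2-hydroxylase of myelin, stood at 6.65, 5.88 and 4.03 CPM after OFL and at 14.9, 21.3, 14.7 and 12.4 CPM naive (log2 -1.51, SE 0.17, edgeR adjusted p = 1.0e-08). Naive replicate 2 was the highest naive library for all 3, and the list's summed level ran over 1341 to 1950.5 CPM after OFL and 1805 to 2588 CPM in naive libraries, so that single libraries differed in their content of these transcripts. The part of that content in the result was not tested. The same log2 differences with GC and length offsets were Aspa 0.54 and Fa2h -0.75.

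Vascular and border cells gave smaller summed levels. Of all genes 38.4% were called lower and 40.0% higher, and of protein-coding genes free of opposite-strand exons 48.7% and 28.3%. Of endothelial genes 9 of the 15 tested were lower, 5 were higher and 1 was not called (with offsets, 9 lower and 3 higher of 14), with a sum of 467 to 485 CPM after OFL and 578 to 601 CPM in naive libraries. Mfsd2a, the lipid transporter of the blood-brain barrier, stood at 16.5, 18.3 and 18.9 CPM after OFL and 53.6, 45.8, 59.1 and 51.2 CPM in naive libraries (log2 -1.55, SE 0.079, edgeR adjusted p = 7.0e-16), against -0.44 in AKR, a difference between the strains of -1.11 (SE 0.11, edgeR adjusted p = 3.5e-07). Ly6c1 and Cldn5, a tight junction gene, went from 50.6 ± 4.77 to 19.7 ± 1.26 CPM and from 30.2 ± 1.76 to 15.6 ± 1.75 CPM. Slc2a1, the glucose transporter of the barrier, went from 160.0 ± 11.9 to 87.4 ± 2.41 CPM, and its B6N change minus its AKR change was -0.58 (SE 0.075, edgeR adjusted p = 1.9e-05). Of mural cell genes 6 of the 10 tested were lower, 2 were higher and 2 were not called (with offsets, 2 lower and 2 higher of 7), or 3 lower and 4 higher with factors from protein-coding genes free of opposite-strand exons, and the contractile gene Acta2 went from 23.9 ± 1.25 to 13.2 ± 1.14 CPM. Markers of tissue beside the cingulate cortex were present at low levels. Meningeal and fibroblast genes summed to 301 to 347 CPM after OFL and 399.9 to 482 CPM in naive libraries, with 5 of 10 called lower (38.4% of all genes), among them Igfbp2 (from 30.4 ± 3.08 to 18.3 ± 1.25 CPM). The list's median was -0.355. With offsets 1 of 9 was lower and 2 were higher, and the median of these 9 went from -0.298 to 0.114. Choroid plexus and ependymal genes summed to 5.60 to 7.48 CPM after OFL and 9.27 to 13.1 CPM in naive libraries, where Ttr was at 0 in 2 of the 3 OFL libraries. Striatal genes summed to 195 to 214 CPM after OFL and 209 to 226 CPM in naive libraries, with Drd1 going from 9.02 ± 1.51 to 14.7 ± 2.31 CPM. Thalamic and hippocampal genes summed to 100.3 to 103 CPM after OFL and 200.1 to 242 CPM in naive libraries. The thalamic and hippocampal list includes Wfs1, also an upper layer gene above, whose decrease given there makes up most of this difference. Hemoglobin and other blood genes were higher in 3 of 5 tested (4 of 4 with offsets), and Hbb-bs stood at 53.9, 48.1 and 45.3 CPM after OFL against 21.2, 21.4, 21.2 and 20.9 CPM in naive tissue. The part of neighbouring tissue and of blood in the other results was not tested. The counts of Slc2a1 are uncertain, since opposite-strand exons cover 2.995% of the exonic bases. Of the 31-base stretches of Ly6c1 and Hbb-bs, 46.8% to 54.4% recur in other genes, which makes the counts uncertain. Under GC and length offsets the log2 differences were Mfsd2a -0.82, Cldn5 0.092 (edgeR adjusted p = 0.29) and Igfbp2 0.36.

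The largest median differences were those of noncoding RNA classes and of histone genes. Median log2 differences were 5.02 for small nucleolar RNAs, 4.71 for small nuclear RNAs, 4.53 for microRNA genes, 4.58 for sense intronic transcripts and 4.25 for the transcripts to be tested further that GENCODE labels TEC, against -0.15 for protein-coding genes. The microRNA values describe reads that fall on those genes in a library of long RNA and not mature microRNAs. Malat1, a nuclear long noncoding RNA, stood at 8135, 8367 and 7696 CPM after OFL and at 973, 1026, 963 and 906 CPM naive (log2 3.06, SE 0.045, edgeR adjusted p = 6.0e-27). Rn7sk, the RNA that holds back elongation by RNA polymerase II, stood at 689, 724 and 714 CPM after OFL and 3.07, 2.74, 2.96 and 2.75 CPM in naive libraries. Kcnq1ot1, an imprinted antisense RNA, went from 28.0 ± 1.74 to 661 ± 26.7 CPM. Replication-dependent histone genes, whose messages end in a stem-loop and carry no poly(A) tail, were higher in 44 of 49 and lower in 1, with a median of 4.85. Hist1h4d stood at 42.4, 41.7 and 40.8 CPM after OFL against 0.197, 0.180, 0.198 and 0.215 CPM in naive tissue, and Hist1h4h went from 0.316 ± 0.0396 to 32.6 ± 1.93 CPM. Small nucleolar and Cajal body RNAs were higher in 135 of the 152 tested, out of 1529 annotated. Of all genes tested 40.0% were higher. The count filter can keep a gene on its OFL libraries alone, so the direction of these classes was partly set beforehand. Their medians and counts hold only for the members that passed it. Protein-coding genes with more than 80% of their exonic bases under opposite-strand exons had a median of 4.93 (n = 30). In AKR the medians of the histone genes and of the small nucleolar and Cajal body RNAs were 5.50 and 4.99. Exons of the opposite strand cover 1.20% to 6.49% of the exonic bases of Malat1 and Kcnq1ot1, whose counts are uncertain. Other genes share 50% to 72.8% of the 31-base stretches of Rn7sk and Hist1h4h, so reads of copies cannot be told apart.

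**Figure D5:**
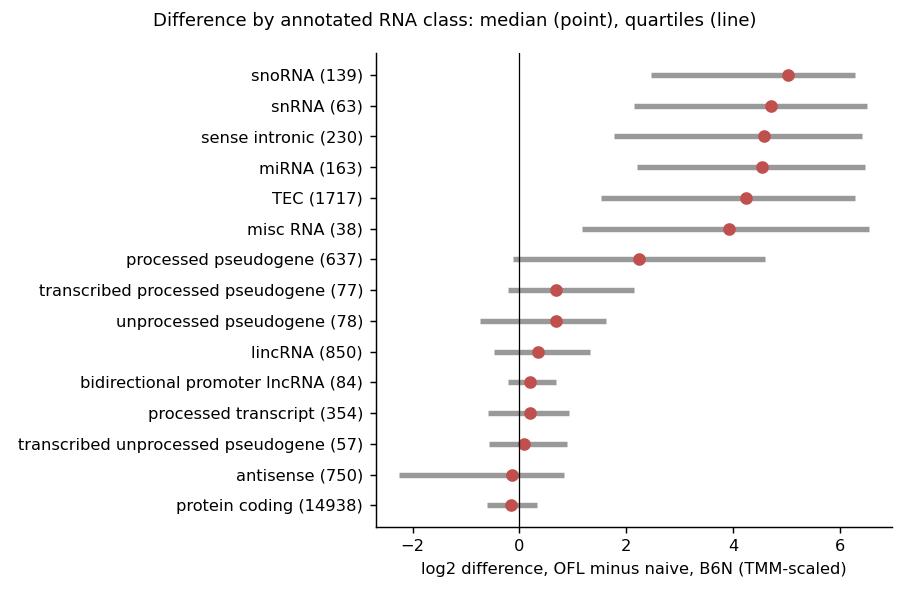
Median and quartiles of the log2 difference (OFL minus naive in B6N, horizontal axis) for each GENCODE gene class (vertical axis). Small nucleolar RNAs (5.02), small nuclear RNAs (4.71) and TEC transcripts (4.25) lie far to the right of protein-coding genes (-0.15).

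Genes of energy metabolism and translation were lower in count, and the nuclear-encoded ones turned with the offsets. Shares of lower calls were 38.4% over all genes and 48.7% over protein-coding genes free of opposite-strand exons. Of the 12 protein genes of the mitochondrial genome tested, 10 were lower, 1 was higher and 1 was not called, with a median of -2.57. They did not fall evenly: mt-Nd6, which lies on the strand opposite to the others, stood at 5.97, 9.73 and 8.56 CPM after OFL and at 452, 440.4, 488 and 469 CPM naive. The gene mt-Nd2 went from 1512 ± 54.4 to 87.6 ± 17.7 CPM. The most abundant, mt-Co1, named after its value was seen, stood at 3438, 3577 and 3593 CPM after OFL and 3924, 3922, 4230.2 and 4122 CPM in naive libraries. The call of mt-Co1 (log2 -0.20, SE 0.045, edgeR adjusted p = 3.3e-04) was lost with factors from protein-coding genes free of opposite-strand exons. For nuclear-encoded respiratory chain genes 54 of the 90 tested were lower, 14 were higher and 22 were not called, but with offsets 30 were higher and 16 lower of 61, and 29 were higher with factors from protein-coding genes free of opposite-strand exons. Atp5g3, a subunit of ATP synthase, went from 149.9 ± 4.87 to 63.7 ± 0.914 CPM, and Uqcrq, of complex III, from 64.5 ± 0.899 to 22.4 ± 1.08 CPM. For cytosolic ribosomal proteins 54 of the 80 tested were lower, 7 were higher and 19 were not called, with offsets 33 were higher and 13 lower of 61, and 19 were higher with those factors. Rps16 went from 85.4 ± 3.88 to 19.5 ± 2.85 CPM, and Rpl23a from 10.7 ± 0.820 to 104 ± 5.38 CPM. Uncertain counts are those of mt-Nd6, mt-Co1 and Rpl23a, where exons of the opposite strand cover 0.194% to 59.7% of the exonic bases. Of the 31-base stretches of Rps16, 39.1% recur in other genes, which makes the counts uncertain.

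Further programs were read for the study's factor and for stress. Beside them, 38.4% of all genes were lower and 40.0% higher, and 48.7% and 28.3% of protein-coding genes free of opposite-strand exons. Of bHLH-PAS factors and partners of ARNT2 7 of the 18 tested were lower, 9 were higher and 2 were not called, with a median of 0.123. In the fit with offsets, which held 10 of them, 7 were lower and none higher, with a median of -0.269. The same 10 members already had a median of -0.443 without offsets. Clock stood at 210.5, 224 and 216 CPM after OFL against 122, 119.8, 122 and 112 CPM in naive tissue (log2 0.87, SE 0.046, edgeR adjusted p = 1.5e-15). Hif1a, the oxygen-regulated subunit, went from 61.8 ± 1.89 to 103 ± 3.87 CPM, and Npas3 from 10.5 ± 0.420 to 23.98 ± 0.349 CPM. The B6N change of Npas3 exceeded that in AKR by 0.55 (SE 0.097, edgeR adjusted p = 7.1e-04). Of hypoxia response genes 8 of the 13 tested were lower, 3 were higher and 2 were not called (with offsets, 5 lower and 1 higher of 8), with Ddit4, an inhibitor of mTOR, going from 47.8 ± 3.31 to 17.7 ± 2.25 CPM and Bnip3, a mitophagy receptor, from 41.8 ± 1.45 to 103 ± 4.24 CPM. Of interferon response genes 9 of the 14 tested were lower and 5 were not called (with offsets, 5 lower and 0 higher of 12), with Stat2 going from 38.8 ± 0.755 to 19.2 ± 1.08 CPM and Isg15 from 2.17 ± 0.444 to 0.256 ± 0.0375 CPM. Of core clock genes 9 of the 18 tested were lower, 6 were higher and 3 were not called (with offsets, 2 lower and 3 higher of 10), or 6 lower and 9 higher with factors from protein-coding genes free of opposite-strand exons, and Nr1d1, the repressor REV-ERB alpha, went from 117 ± 2.95 to 48.2 ± 8.96 CPM. Of cholesterol synthesis genes 6 of the 18 tested were lower, 9 were higher and 3 were not called (with offsets, 4 lower and 6 higher of 12), where Hmgcs1 went from 174 ± 3.42 to 335 ± 14.9 CPM and the regulator gene Srebf2 from 304 ± 8.94 to 150.2 ± 15.7 CPM. For Hif1a, Npas3, Bnip3, Nr1d1 and Hmgcs1, 1.38% to 22.2% of the exonic bases lie under exons of the opposite strand, so these counts are uncertain. The same log2 differences with GC and length offsets were Clock 0.0038 (edgeR adjusted p = 0.94), Ddit4 -0.50, Isg15 -2.41 and Srebf2 -0.43.

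The B6N and AKR differences ran in parallel across genes. They share no library, had a Pearson correlation of 0.960 over all genes (0.906 over the 10362) and the same sign for 91.3%, a description across genes that are not independent. The B6N change differed from the AKR change for 1044 genes (5.15%), with 732 lower in B6N (3.61%) and 312 higher (1.54%), so that 29.9% were higher, against 40.7% (379 of 931) with factors from protein-coding genes free of opposite-strand exons. With GC and length offsets 385 were lower (3.71%) and 229 higher (2.21%) of 10378.

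Of the genes with the largest such differences toward lower values in B6N, H2-T24, a nonclassical class I gene of the major histocompatibility complex, stood at 2.88, 2.03 and 2.34 CPM after OFL and at 15.1, 13.9, 14.9 and 15.03 CPM naive, -2.60 on the log2 scale (SE 0.12, edgeR adjusted p = 9.2e-17). In AKR it went from 5.84 ± 0.356 to 5.24 ± 0.713 CPM, and the difference between strains was -2.45 (SE 0.18, edgeR adjusted p = 8.0e-10). Rasd1, a Ras-like gene that dexamethasone induces, stood at 1.58, 2.31 and 2.19 CPM after OFL and 9.71, 12.6, 12.7 and 10.9 CPM in naive libraries, with -0.95 in AKR and a difference of -1.54 (SE 0.25, edgeR adjusted p = 3.3e-04). Kirrel2, an adhesion molecule gene, stood at 6.04, 7.35 and 9.20 CPM after OFL against 22.5, 18.6, 23.5 and 23.5 CPM in naive tissue (strain difference -1.20, SE 0.18, edgeR adjusted p = 1.2e-04). Itga11, an integrin subunit gene, stood at 1.85, 1.89 and 0.991 CPM after OFL and at 3.78, 2.74, 3.75 and 3.61 CPM naive (strain difference -1.20, SE 0.26, edgeR adjusted p = 0.0064). Map3k19 stood at 8.16, 8.19 and 7.79 CPM after OFL and 8.34, 7.96, 10.5 and 8.07 CPM in naive libraries (strain difference -1.16, SE 0.17, edgeR adjusted p = 7.7e-05). The difference for Map3k19 came from AKR, where it was 1.05, while B6N gave -0.11 on the log2 scale (SE 0.12, edgeR adjusted p = 0.39). Pglyrp1, Sdf2l1 and Mfsd2a complete these 8, with -1.45, -1.21 and -1.11. The values that follow are OFL minus naive within B6N, not differences between the strains. Under GC and length offsets these log2 differences were Rasd1 -1.82, Kirrel2 -0.80, Itga11 -0.53 (edgeR adjusted p = 0.059), Map3k19 0.027 (edgeR adjusted p = 0.85) and Pglyrp1 -1.99.

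Toward higher values in B6N, Lmbr1 stood at 50.8, 53.2 and 52.8 CPM after OFL against 18.0, 24.8, 15.8 and 12.9 CPM in naive tissue, 1.55 on the log2 scale (SE 0.11, edgeR adjusted p = 7.3e-13), with 0.44 in AKR and a difference of 1.11 (SE 0.15, edgeR adjusted p = 3.2e-05). Its naive libraries spread from 12.9 to 24.8 CPM, all below the OFL libraries. Opalin, a membrane protein of myelin, stood at 7.54, 6.79 and 4.601 CPM after OFL and at 4.09, 6.43, 3.604 and 4.51 CPM naive, overlapping between the groups. It was 0.44 in B6N, a call lost without naive replicate 1 or 3 or OFL replicate 1 or 2, against -0.68 in AKR, and the difference between the strains was 1.12 (SE 0.25, edgeR adjusted p = 0.0062). Dnah7b, an axonemal dynein gene, stood at 14.54, 12.1 and 13.6 CPM after OFL and 6.49, 6.48, 5.97 and 6.27 CPM in naive libraries (strain difference 0.90, SE 0.15, edgeR adjusted p = 4.5e-04). Zfp619, a zinc finger gene, stood at 10.9, 12.5 and 13.4 CPM after OFL against 5.70, 5.26, 5.63 and 5.80 CPM in naive tissue (strain difference 0.81, SE 0.15, edgeR adjusted p = 8.1e-04). Evi2a and Lmcd1 were not called within B6N, at 5.48 ± 1.503 CPM after OFL (SD, n = 3) against 6.38 ± 1.39 CPM in naive libraries (SD, n = 4) and 5.10 ± 1.33 CPM after OFL (SD, n = 3) against 5.61 ± 0.435 CPM in naive libraries (SD, n = 4). Leaving out B6N OFL replicate 1 gave a call for Evi2a (-0.46, edgeR adjusted p = 0.025), and leaving out B6N OFL replicate 3 gave one for Lmcd1 (-0.33, edgeR adjusted p = 0.043). Both fell in AKR, by 1.15 and 1.02. Their differences between the strains, 0.93 and 0.88, lost their calls without AKR OFL replicate 3 or B6N OFL replicate 1 for Evi2a, and without B6N OFL replicate 3 for Lmcd1. Espn was lower in both strains, and less so in B6N (1.23, SE 0.34, edgeR adjusted p = 0.032), a call lost without any one of the AKR OFL libraries or B6N OFL replicate 2 (1.04, edgeR adjusted p = 0.155). Aspa, at 0.85, was called for the difference, but not without AKR OFL replicate 3, naive B6N replicate 1 or B6N OFL replicate 1, nor with DESeq2 (adjusted p = 0.091). Other genes share 40.1% of the 31-base stretches of Dnah7b, so reads of copies cannot be told apart. Once GC and length offsets were used, the log2 differences of OFL minus naive within B6N became Dnah7b 0.20 (edgeR adjusted p = 0.073) and Lmcd1 0.65. These are not differences between the strains.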

How the data were processed

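The deposited counts were whole reads per Ensembl gene, made by the authors, with naive and OFL libraries in separate tables, per the file headers. GRCm38, TopHat2 2.1.1, HTSeq, cutadapt 2.7, edgeR and CASAVA are listed in the submitters' processing notes; the annotation release and whether counting used strand are not given in the sources used here. Libraries came from total RNA (Trizol) with the TruSeq RNA Sample Prep Kit v2, per the labels. CPM tables of single samples that the authors deposited were not used here. No count column was left out. GENCODE annotation of GRCm38 named 53360 of 53465 identifiers.

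The 14 libraries were joined on identifier and fitted together in edgeR 4.0.16 (R 4.3.3, limma 3.58.1): filterByExpr by group, TMM factors, 4 groups, quasi-likelihood F-test, two-sided, Benjamini-Hochberg adjustment over the 20291 genes tested, called at an adjusted p under 0.05. Levels are TMM-scaled CPM. The difference between the strains is the B6N change minus the AKR change in that fit. Total counts of 14063573 to 25780227 per B6N library set the precision. No pair of B6N replicates agreed within sampling noise, with chi-square per degree of freedom of 1.73 to 4.12. The members compared, the 43 gene lists and the rules were chosen with earlier results of these data known. Named were 4 genes of the study, the 15 largest increases and decreases among protein-coding genes free of opposite-strand exons (called, at least 2-fold, mean of at least 5 CPM, no overlap; predicted genes not named), from each list at most 4 called members, those of smallest p, of which some are not reported here, the 8 largest differences between the strains in each direction, and the most abundant members of RNA classes. Shared sequence was counted in stretches of 31 bases. In the fit with offsets, natural splines (5 degrees of freedom) of GC content and log length were fitted per library. On simulated counts the test recovered 100% of genes changed 2-fold and 92% of those changed 1.5-fold among 19470 genes, with 5.88% of calls false. For the difference between the strains it recovered 98% and 82% among 19459 genes, with 6.25% false. The simulation changed only a small part of the genes, none of low count, in random directions and without trends in GC content, length or set. These rates need not hold for the data, where 78.4% of genes were called. Alternatives were other scalings (DESeq2 1.42.0 size factors, upper quartile, factors from a subset of genes), other filters, the DESeq2 test, B6N libraries alone, the replicate number as a block and each library left out.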

Additional observations from a re-analysis of the deposited data

Results flagged for a closer look

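The B6N change minus the AKR change was tested for every gene, and 1044 of 20291 passed, 732 of them below the AKR change. Values follow for the genes named in the text, which are few of these. Among glucocorticoid response genes, Fkbp5 (-0.95), Tsc22d3 (-1.11), Plin4 (-2.26), Map3k6 (-0.85), Cdkn1a (-0.97) and Hif3a (-0.84) were called, on the log2 scale. Among endoplasmic reticulum genes the differences were Hspa5 (-0.86), Sdf2l1 (-1.21), Pdia3 (-0.41), Hsp90b1 (-0.38) and Calr (-0.36). Heat shock genes gave Hsph1 (-0.44) and Hsp90ab1 (-0.24), and genes of vessels and glucose transport gave Mfsd2a (-1.11), Slc2a1 (-0.58) and Ly6c1 (-0.54). Other genes below the AKR change were Cacna1c (-0.31), Dlx1 (-0.38), Fam205c (-6.27), Grin2b (-0.39), H2-T24 (-2.45), Homer1 (-0.51), Itga11 (-1.20), Jund (-0.46), Kirrel2 (-1.20), Map3k19 (-1.16), Mdga1 (-0.84), Pglyrp1 (-1.45), Prrt1 (-0.49), Rasd1 (-1.54), Rn7sk (-0.68), Slc30a3 (-0.39) and Utp14b (-0.59), where Fam205c rests on few counts (-5.14 without AKR OFL replicate 1). Above it were Adarb2 (0.32), Aspa (0.85), Catspere2 (0.68), Dnah7b (0.90), Espn (1.23), Evi2a (0.93), Gria4 (0.26), Hmgcs1 (0.23), Lmbr1 (1.11), Lmcd1 (0.88), Npas3 (0.55), Nr3c1 (0.24), Nr3c2 (0.27), Opalin (1.12), Ugt8a (0.52), Zfp619 (0.81) and Zfp955a (0.50). Several of these calls depend on 1 library: those of Aspa, Calr, Dlx1, Espn, Evi2a, Hmgcs1, Lmcd1, Map3k6, Nr3c1, Nr3c2, Prrt1, Rn7sk, Ugt8a and Zfp955a were lost in at least 1 fit that left out a library, while those of Fkbp5, Tsc22d3, Plin4 and Hspa5 were not. With DESeq2 those of Aspa (adjusted p = 0.091), Nr3c2 (0.051) and Ugt8a (0.13) were lost, with no filter on low counts that of Nr3c2 (edgeR adjusted p = 0.0501), with factors from protein-coding genes free of opposite-strand exons that of Dlx1 (edgeR adjusted p = 0.065), and with offsets those of Ugt8a (edgeR adjusted p = 0.087) and Cacna1c (0.11).

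In naive B6N, 13 of 164 genes looked at (7.9%) had 1 library far from the other 3 by Dixon's criterion, where chance gives about 1 in 20. Replicate 2 stood apart for Aspa (9.72 CPM), Atp5g3 (157 CPM), Itga11 (2.74 CPM), Klhl34 (76.9 CPM), Syn1 (703 CPM) and Ugt8a (26.1 CPM), replicate 3 for Dlx1 (37.6 CPM), Map3k19 (10.5 CPM), Nlgn1 (78.2 CPM) and Olfr90 (4.69 CPM), and replicate 4 for Cdk5r2 (343 CPM), Pdyn (36.2 CPM) and Rps16 (91.2 CPM). For each of these genes except Map3k19, all OFL libraries still lay to one side of all naive libraries. For Klhl34, Olfr90 and Cdk5r2 the rule that picked them required this.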

How the results depend on the processing

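Counts over all genes kept within 1.5 times their value in 87 comparisons of a setting with the reported value, and moved further in 2. With GC and length offsets, which leave fewer genes to test, 878 protein-coding genes free of opposite-strand exons were called at least 2-fold (447 higher, 431 lower, against 1906), and 614 were called for the difference between the strains (229 higher, 385 lower, 510 of them among the 605 such genes called without offsets). Where either fit gave a call, offsets also reversed Arc (0.74), Cacna1c (-0.13), Cck (0.22), Cldn5 (0.092), Homer1 (-0.065), Igfbp2 (0.36), Lmcd1 (0.65) and Sstr1 (0.078). Npas4 and Map3k19, called in neither fit, changed sign as well. The cause was not tested. With factors from protein-coding genes free of opposite-strand exons the calls of at least 2-fold among those genes were 899 higher and 857 lower, and those between the strains 379 higher and 552 lower. Left out in turn, single libraries gave 15511 to 16281 genes called, 6290 to 6843 called at least 2-fold, 1855 to 2055 of the protein-coding kind and 732 to 1273 for the difference between the strains. Replicate numbers did not pair the libraries: same-numbered OFL and naive libraries had correlations of deviations of -0.093, -0.125 and 0.149. With the number as a replicate block the counts were 15722, 6387, 1874 and 1013, Fos lost its call (edgeR adjusted p = 0.078), and Arc (-0.44, edgeR adjusted p = 0.022) and Npas4 (-0.64, edgeR adjusted p = 0.010) gained one. Among genes named, 3693 comparisons of a setting with the reported value within B6N neither changed a call nor turned a called direction. In 22 a call was lost, in 8 one was gained, and 8 reversed. The size of the difference did not enter this count, so it may have moved in any of them. Counts of list members moved by over 1.5 times in 71 comparisons with offsets (89 stayed within it), 163 that left out a library (2245 stayed) and 54 others (1236 stayed). Depth limits the genes near 0 after OFL: the fitted differences of Il4, Proz and Ttr rest on a few counts in single libraries and are not printed.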
